A study of Mus musculus with 24 samples.

Results

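A set of 40 genes of the germline and of meiosis was followed through embryonic stem cells (ESCs) and expanded potential stem cells (EPSCs) of the mouse. The members were listed as germ cell genes and found by their gene symbol in 2 tables of poly(A) RNA-seq. The rule uses no measured value, but the list was drawn up with earlier results of these data known. All 40 are among the 25476 genes of the table of the tet-off lines, and 37 are among the 23095 genes of the table of the J1 line, where Tdrd6, Spo11 and Nanos2 are not listed. Every listed member had at least 2 reads and was tested. They were grouped by role into 5 germ cell fate and RNA regulators, 4 genes of meiotic entry and recombination, 7 genes of the meiotic chromosome axis and cohesin, 16 genes of the piRNA pathway and the nuage, and 8 other genes of the testis and germ cells.

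The series holds 24 libraries in 12 groups of 2 replicates. The first table holds wild-type J1 ESCs, grown in serum with LIF and the 2 inhibitors CHIR99021 and PD0325901 (2i), and the D-EPSCs and L-EPSCs made from them. D-EPSCs were kept with LIF, CHIR99021, dimethindene maleate and minocycline, and L-EPSCs with LIF, CHIR99021, PD0325901, A-419259, XAV939, JNK inhibitor VIII and SB203580. The second table holds ESCs, untreated L-EPSCs and doxycycline (Dox)-treated L-EPSCs of ZHBTc4 (Oct4-cKO), 2TS22C (Sox2-cKO) and NgcKO (Nanog-cKO). The study's methods do not state a medium for the ESCs of these lines separately. In each of these lines the endogenous gene is deleted, a transgene that Dox shuts off supplies the factor, and untreated cells therefore already carry the deletion. Each genotype is 1 line, no line without such a transgene was given Dox, and loss of the factor and Dox itself cannot be told apart. Levels are reads per gene divided by the size factor of the library (normalized counts). The 2 tables were normalized separately, so every test stays within a table.

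Germ cells express a set of genes that somatic cells and most pluripotent cells keep silent. Many of them have promoters rich in CpG that are methylated after implantation by DNMT3A and DNMT3B with their cofactor DNMT3L, and the methylation is then copied by DNMT1 with UHRF1. A repressor complex of MGA, MAX and E2F6 also binds many of these promoters through E-box and E2F sequences. TET enzymes oxidise methylated cytosine. Stra8 and the meiotic cohesins are used at meiotic entry, and PIWI proteins with the tudor proteins of the nuage make the small RNAs that silence transposons in the male germ line.

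Promoter sequence was the one feature of the members that did not come from the RNA. RefSeq promoter windows on GRCm38.p6, each with 250 bases before the start and 50 after it, were found for 33 of the 40 members. For a gene with several windows, CpG values came from the window with the most CpG, and a motif in any of its windows was counted. In 22 of the 33 (66.7%) the ratio of observed to expected CpG was above 0.6, against 38.2% of the 27025 genes with a window. The median over genes was 20 CpG for the members against 8 for all genes. The E-box letters CACGTG (the same on both strands) were present in the windows of 14 members (42.4%), against 8.09% of all genes. Among genes with a CpG ratio above 0.6 these shares were 59.1% of 22 members and 12.7% of 10332 genes. The E2F letters TCCCGC, searched on both strands, were found for 42.4% of members against 22.1% of all genes. Among the genes with a CpG ratio above 0.6 the shares were 54.5% against 45.6%. The nuclear receptor half-site AGGTCA, searched on both strands, was found for 18.2% of members and 18.1% of all genes. The 3 motifs did not overlap in the windows shown here. The 250 bases before the start are given for Stra8, the member with the highest group mean, and for the 5 members given library by library, and with a window, whose fold change between J1 ESCs and L-EPSCs was largest. Capitals mark the 3 motifs, and every sequence reads 5′ to 3′ in the direction of transcription.
Stra8 (chr6:34920698-34920947, plus strand): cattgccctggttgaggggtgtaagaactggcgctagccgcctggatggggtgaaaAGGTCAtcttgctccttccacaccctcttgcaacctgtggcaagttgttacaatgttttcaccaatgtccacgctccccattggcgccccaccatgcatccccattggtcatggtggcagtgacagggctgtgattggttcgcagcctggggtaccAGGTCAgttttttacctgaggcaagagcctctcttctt
Slc25a31 (chr3:40708621-40708870, plus strand): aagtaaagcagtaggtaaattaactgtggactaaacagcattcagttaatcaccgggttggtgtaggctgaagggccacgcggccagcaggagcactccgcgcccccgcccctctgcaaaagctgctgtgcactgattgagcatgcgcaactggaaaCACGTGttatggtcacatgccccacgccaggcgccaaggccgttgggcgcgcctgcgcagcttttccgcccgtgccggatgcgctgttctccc
Tdrkh (chr3:94412994-94413243, plus strand): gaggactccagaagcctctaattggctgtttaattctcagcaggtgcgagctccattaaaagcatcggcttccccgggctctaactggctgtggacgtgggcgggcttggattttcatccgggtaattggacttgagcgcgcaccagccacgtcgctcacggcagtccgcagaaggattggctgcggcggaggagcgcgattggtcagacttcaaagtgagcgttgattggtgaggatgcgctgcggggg
Mov10l1 (chr15:88982744-88982993, plus strand): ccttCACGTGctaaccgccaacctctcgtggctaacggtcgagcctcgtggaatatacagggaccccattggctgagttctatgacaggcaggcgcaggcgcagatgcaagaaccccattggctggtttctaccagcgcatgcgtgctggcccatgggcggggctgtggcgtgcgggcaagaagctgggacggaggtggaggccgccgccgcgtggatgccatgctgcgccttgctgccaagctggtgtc
Mael (chr1:166238745-166238994, minus strand): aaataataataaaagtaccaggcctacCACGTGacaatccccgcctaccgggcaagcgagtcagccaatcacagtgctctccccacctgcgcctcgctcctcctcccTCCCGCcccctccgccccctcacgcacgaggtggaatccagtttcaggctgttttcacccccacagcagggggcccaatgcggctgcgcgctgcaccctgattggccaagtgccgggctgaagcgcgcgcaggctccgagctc
Ddx4 (chr13:112652311-112652560, minus strand): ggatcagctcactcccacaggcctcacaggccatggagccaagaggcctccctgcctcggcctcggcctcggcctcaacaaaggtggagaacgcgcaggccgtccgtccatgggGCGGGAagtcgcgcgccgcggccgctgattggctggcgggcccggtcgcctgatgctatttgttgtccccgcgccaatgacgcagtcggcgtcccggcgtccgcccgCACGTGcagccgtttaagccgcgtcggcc
The 250 bases held 31 CpG in Ddx4, 19 in Tdrkh and in Mov10l1, 18 in Slc25a31 and in Mael, and 5 in Stra8. An E-box stood in Slc25a31, Mov10l1, Mael and Ddx4, an E2F sequence in Mael and Ddx4, and 2 half-sites in Stra8, while the Tdrkh stretch held none of the 3.

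The libraries held between 10807631 and 15069899 reads on genes. Dox lowered the RNA of the factor that each line carries on its transgene: Pou5f1 (Oct4) went from 6420.1 and 6316 normalized counts in untreated Oct4-cKO L-EPSCs to 162 and 184, Sox2 from 4966 and 4701 to 47.0 and 53.1 in Sox2-cKO, and Nanog from 9119 and 8847 to 3166 and 3112 in Nanog-cKO. Nanog RNA was thus reduced and not lost, while the study reports loss of the Nanog protein by western blot in Dox-treated cells of this line. The J1 libraries also held RNA of genes that mark other cells. The summed normalized counts of 11 fibroblast genes were 92192 to 94361 in J1 ESCs, 60715 to 61049.7 in D-EPSCs and 21581 to 22207 in L-EPSCs. Of the 11 genes 5 rose and 3 fell in D-EPSCs, with a median log2 fold change of 0.49, and 7 fell in L-EPSCs, with a median of -1.29. The sums of 8 macrophage genes, led by Lyz2, were 2561 to 2564, 20038 to 20158 and 15813 to 15888. In the tet-off table the fibroblast sum was 311 to 670.1 (10 of the 11 genes are listed) and the macrophage sum 186 to 761, with Lyz2, Adgre1, Ptprc and Tyrobp at or near 0. In bulk libraries, fewer cells of a type and less RNA per cell cannot be told apart. The labels do not say that replicates were separate cultures, so p-values measure the spread between these libraries, which may be technical.

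**Figure D1:**
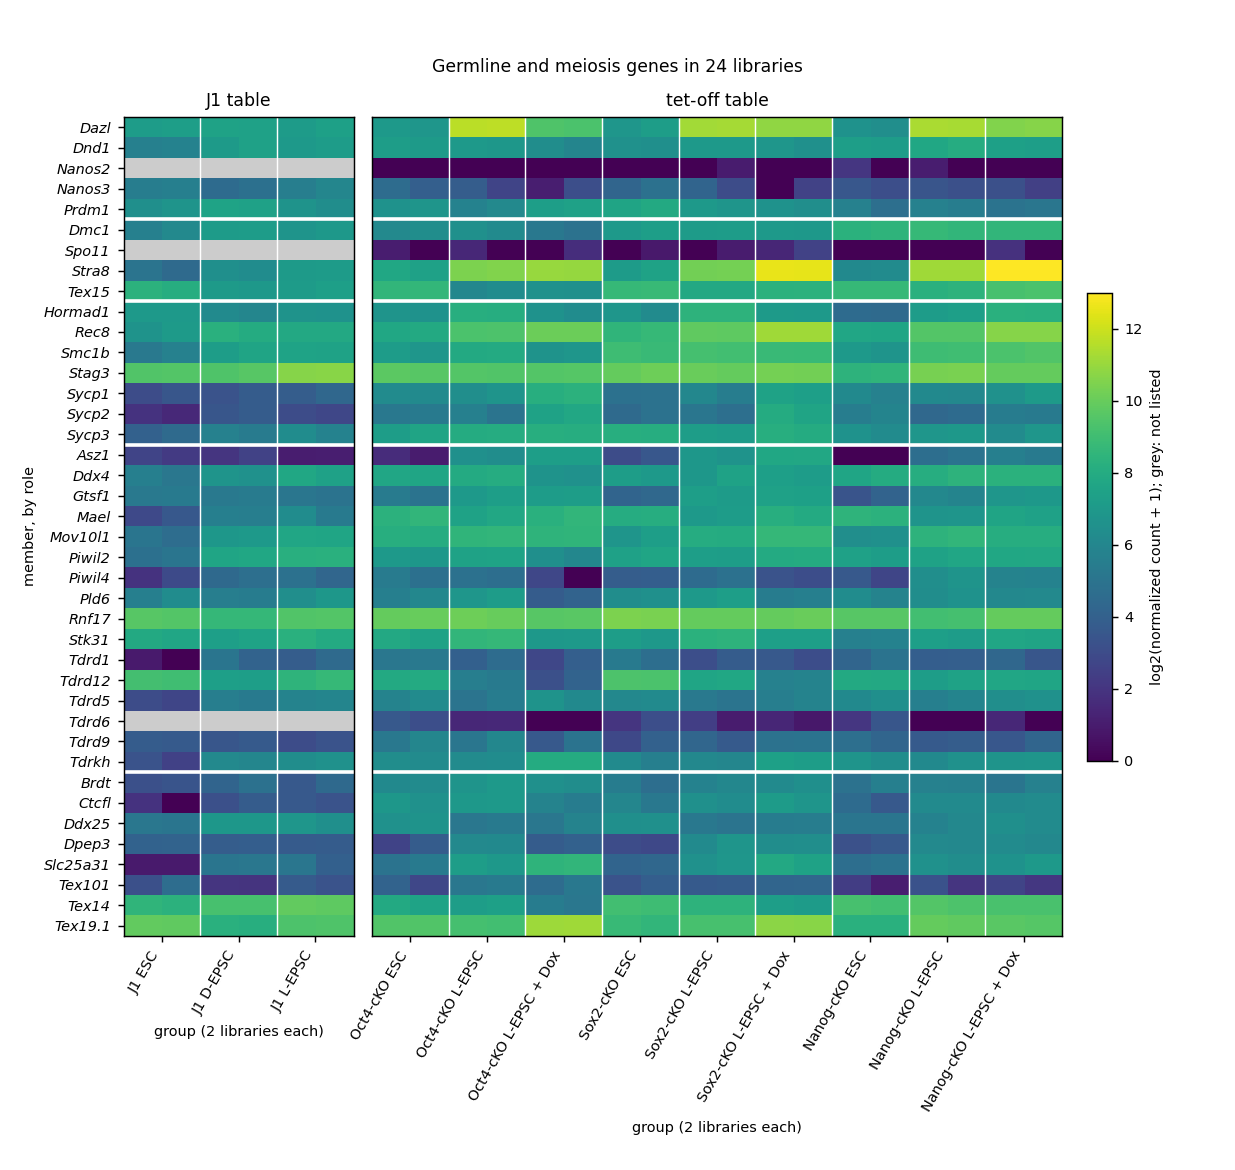
Level of each member (rows, by role) in each of the 24 libraries (columns, 2 per group) as log2(normalized count + 1), with grey where a gene is not listed. Stra8 and Dazl stand out in the L-EPSCs of the tet-off lines, while Nanos2 and Spo11 are near 0 in every tet-off library.

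In the J1 line, more members rose than fell in both kinds of EPSC against ESCs. Of 37 members, 20 rose and 7 fell in D-EPSCs, against 10.8% of all genes called higher and 9.98% called lower (20.7% in all), and the median log2 fold change of the members was 1.24 against 0.01 for all genes tested. In L-EPSCs 19 rose and 1 fell, against 8.8% and 11.5% of all genes (20.3% in all), with a median of 0.98 against 0. A call needed a limma adjusted p (Benjamini-Hochberg over all genes tested) under 0.05 and a log2 fold change beyond 0.6. Between the 2 EPSC states, 11 members were higher and 1 was lower in L-EPSCs, against 4.8% and 8.58% of all genes (13.4% in all), with a median of 0.25 against 0. A group of 9 members (Ctcfl, Ddx4, Mael, Mov10l1, Piwil2, Piwil4, Tdrd1, Tdrd5 and Tdrkh) also belong to a DNA methylation list that the study drew from terms enriched in these same J1 libraries, so their direction is not independent evidence. All 9 rose in both EPSC states, and of the 28 others 11 rose and 7 fell in D-EPSCs, and 10 rose and 1 fell in L-EPSCs. The median of these 28 was 0.16 in D-EPSCs and 0.49 in L-EPSCs, against 2.54 and 2.80 for the 9. The D-EPSC count fell from 27 to 16 without replicate 1 of the D-EPSCs and to 17 without their replicate 2, and the count between L-EPSCs and D-EPSCs fell from 12 to 5 without replicate 2 of the D-EPSCs and to 6 without any other 1 of its 4 libraries. Fewer of all genes were called too without these libraries, but the members lost a larger share of their calls than all genes did. The fibroblast and macrophage sums moved with these comparisons. So did the summed counts of 9 trophoblast genes (747 to 752 in ESCs, 97.0 to 115 in D-EPSCs and 228 to 237 in L-EPSCs) and of 8 primitive endoderm genes (966 to 993, 1822 to 1858 and 1553 to 1649), and of 12 genes of pluripotency and germ cell specification 7 fell in each EPSC state and 1 rose in D-EPSCs. The part of these lists in the results was not tested.

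Of the 15 piRNA genes listed in J1, 8 rose and 2 fell in D-EPSCs, and 8 rose in L-EPSCs. The same 8 rose in both states, and all belong to the DNA methylation list that the study drew from these libraries. No piRNA gene outside that list rose, so the direction of the 8 is not independent evidence. Piwil2, a PIWI protein, had 27.0 and 32.3 normalized counts in ESCs, 197 and 210.5 in D-EPSCs and 293 and 308 in L-EPSCs. The 3 groups did not overlap, and the log2 fold changes over ESCs were 2.75 ± 0.14 (SE) in D-EPSCs and 3.30 ± 0.14 in L-EPSCs (limma adjusted p = 3.8e-06 and 1.5e-06). Tdrkh, a tudor protein of the outer mitochondrial membrane where piRNAs are trimmed, had 8.99 and 4.61 in ESCs, 67.4 and 60.7 in D-EPSCs and 83.3 and 94.2 in L-EPSCs. Tdrkh rose by 3.12 ± 0.33 and 3.58 ± 0.33 (limma adjusted p = 0.00019 and 8.8e-05). Mov10l1, the RNA helicase that starts piRNA processing, had 32.4 and 23.98 in ESCs, 115 and 126 in D-EPSCs and 203 and 199 in L-EPSCs. It was higher in every D-EPSC library than in ESCs and higher again in every L-EPSC library, by 0.73 ± 0.19 on the log2 scale between the EPSC states (limma adjusted p = 0.021), a call that was lost without any 1 of the 4 libraries, at values from 0.66 to 0.79. Ddx4, the germ cell RNA helicase of the nuage, had 48.5 and 35.0 in ESCs, 105 and 94.0 in D-EPSCs and 214 and 175 in L-EPSCs. It rose by 1.25 ± 0.21 in D-EPSCs and 2.20 ± 0.21 in L-EPSCs, and by 0.95 ± 0.21 between them (limma adjusted p = 0.002, 8.8e-05 and 0.0098). The first of these calls was lost without either D-EPSC library, at 1.17 and 1.33, and the third without any 1 of its 4 libraries, at 0.81 to 1.10.

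Mael, another protein of the nuage, had 6.29 and 11.1 in ESCs, 48.0 and 47.0 in D-EPSCs and 79.2 and 40.2 in L-EPSCs, and rose by 2.37 ± 0.41 and 2.62 ± 0.41 (limma adjusted p = 0.0026 and 0.0015). Without replicate 1 of the ESCs neither call held, at 2.01 and 2.25, nor did the D-EPSC call without either D-EPSC library, at 2.36 and 2.39. Tdrd12, a tudor protein with a helicase domain, moved the other way in D-EPSCs, with 549 and 522 in ESCs, 162 and 154 in D-EPSCs and 355 and 416 in L-EPSCs. The log2 fold change of Tdrd12 was -1.75 ± 0.10 in D-EPSCs (limma adjusted p = 5.2e-06) and -0.48 ± 0.10 in L-EPSCs, the latter not called. Rnf17, a tudor protein with a RING domain, followed with 781 and 723 in ESCs, 399 and 399 in D-EPSCs, and 719.7 and 732 in L-EPSCs, and fell in D-EPSCs (log2 fold change -0.91, limma adjusted p = 1.4e-05). Pld6, a mitochondrial protein needed for piRNA production, and Stk31, a tudor protein with a kinase domain, were called in J1 between the EPSC states. Pld6 had 48.5 and 79.3 in ESCs, 47.0 and 43.1 in D-EPSCs and 84.3 and 116 in L-EPSCs, and Stk31 had 235 and 207 in ESCs, 163 and 184 in D-EPSCs, and 306 and 245 in L-EPSCs. Both were higher in every L-EPSC library than in every D-EPSC library, by 1.12 ± 0.28 and 0.66 ± 0.14 (limma adjusted p = 0.019 and 0.0085), but the Pld6 call was lost without any 1 library (0.89 to 1.35) and the Stk31 call without any except replicate 2 of the L-EPSCs (0.49 to 0.74). Gtsf1, a partner of PIWI proteins, had 37.74 and 38.7 in ESCs, 37.8 and 42.1 in D-EPSCs, and 33.9 and 29.9 in L-EPSCs, and Asz1, a nuage protein at mitochondria, had 5.39 and 3.69 in ESCs, 3.06 and 4.89 in D-EPSCs, and 1.03 and 1.15 in L-EPSCs, and neither was called in J1.

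The piRNA genes Tdrd1, Piwil4 and Tdrd5 rose in both EPSC states too. Tdrd1 had 1 read in the 2 ESC libraries together and 48 in D-EPSCs, a ratio of normalized counts of 52.7 with an exact 95% interval of 9.02 to 2125 that covers counting error only. Piwil4 and Tdrd5 were between 2.696 and 27.8 and between 5.53 and 59.8 normalized counts over the 6 libraries. Tdrd9, a helicase with a tudor domain, was between 7.20 and 12.6 and was not called in any J1 comparison.

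Among genes of meiotic entry and recombination, Stra8, which retinoic acid induces before meiosis, had 31.5 and 21.2 normalized counts in ESCs, 86.8 and 78.3 in D-EPSCs and 133 and 141 in L-EPSCs. The groups did not overlap, with log2 fold changes of 1.64 ± 0.23 and 2.36 ± 0.23 over ESCs (limma adjusted p = 0.00084 and 0.00011), and the D-EPSC call was lost without replicate 1 of the D-EPSCs, at 1.56. The call between the EPSC states (0.72 ± 0.23) was lost without any 1 library, at 0.65 to 0.80. Dmc1, the meiotic recombinase, had 50.3 and 67.3 in ESCs, 141 and 143 in D-EPSCs, and 104 and 121 in L-EPSCs, and rose by 1.27 ± 0.19 and 0.93 ± 0.19 (limma adjusted p = 0.001 and 0.005), calls that were lost without either library of the EPSC group, at 1.26 to 1.28 and 0.82 to 1.04. Tex15, needed for recombination and for silencing of transposons in male germ cells, had 324 and 277 in ESCs, 133 and 120.4 in D-EPSCs, and 138 and 159.7 in L-EPSCs. It was the one member that fell in both EPSC states, with log2 fold changes of -1.24 and -1.01 (limma adjusted p = 0.0002 and 0.00058).

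Of the meiotic cohesins, the subunit Rec8 had 99.7 and 135 in ESCs, 302 and 255 in D-EPSCs and 228 and 229.8 in L-EPSCs, and rose by 1.25 ± 0.16 and 0.98 ± 0.16 (limma adjusted p = 0.00048 and 0.0018). The D-EPSC call of Rec8 was lost without replicate 1 of the D-EPSCs, at 1.13, and the L-EPSC call without either L-EPSC library, at 0.97 and 0.98. Smc1b, the meiotic form of the SMC1 subunit, had 37.74 and 51.6 in ESCs, 151 and 191 in D-EPSCs, and 186 and 176 in L-EPSCs, and rose by 1.92 ± 0.19 and 2.01 ± 0.19 (limma adjusted p = 0.00014 and 0.00011). Stag3, the third meiotic cohesin subunit, differed in that its libraries stood at 701 and 735 in ESCs and 679 and 789 in D-EPSCs but at 1598 and 1679 in L-EPSCs. ESCs and D-EPSCs overlapped and L-EPSCs lay above both, by 1.19 ± 0.07 over ESCs and 1.16 ± 0.07 over D-EPSCs (limma adjusted p = 1e-05 and 2.4e-05).

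Sycp3, of the lateral elements of the synaptonemal complex, had 15.3 and 21.2 normalized counts in J1 ESCs, 51.1 and 41.1 in D-EPSCs and 80.2 and 54.0 in L-EPSCs, and was called higher in both (log2 fold changes 1.30 ± 0.31 and 1.81 ± 0.31), but 52.2% of its exon bases overlap Chpt1 on the other strand and the strand setting of the counting is not stated, so its reads are uncertain. The D-EPSC call was lost without any 1 of its 4 libraries, at 1.08 to 1.52, and the L-EPSC call without replicate 1 of the ESCs or of the L-EPSCs, at 1.59 and 1.53. Sycp2 had 2.696 and 1.84 in ESCs, 10.2 and 12.7 in D-EPSCs, and 7.20 and 5.75 in L-EPSCs and was called higher in D-EPSCs, a call lost without replicate 2 of the D-EPSCs or of the ESCs (1.79 and 1.75), and Sycp1, the transverse filament, had 7.19 and 10.1 in ESCs, 9.19 and 12.7 in D-EPSCs, and 13.4 and 19.5 in L-EPSCs with no call. Hormad1, an axis protein of early meiosis, had 129 and 127 in ESCs, 73.5 and 61.7 in D-EPSCs, and 99.7 and 96.5 in L-EPSCs, and fell in D-EPSCs (log2 fold change -0.92, limma adjusted p = 0.0026).

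The regulators of germ cell fate did not move together. Dazl, an RNA-binding protein that germ cells need to become competent for gametogenesis, had 145 and 155 in ESCs, 182 and 175 in D-EPSCs and 139.8 and 168 in L-EPSCs, and its log2 fold changes of 0.25 ± 0.13 and 0.03 ± 0.13 were not called. Dnd1, an RNA-binding protein of primordial germ cells, had 50.3 and 53.5 in ESCs, 135 and 173 in D-EPSCs, and 129.5 and 143 in L-EPSCs, and rose by 1.54 ± 0.17 and 1.37 ± 0.17 (limma adjusted p = 0.00023 and 0.00043). Prdm1 (Blimp1), a repressor that specifies primordial germ cells, had 87.2 and 103 in ESCs, 187 and 171 in D-EPSCs, and 99.7 and 80.4 in L-EPSCs, so D-EPSCs lay above both other groups, by 0.91 ± 0.17 over ESCs (limma adjusted p = 0.0034, lost without either D-EPSC library or replicate 1 of the ESCs, at 0.79 to 0.97). L-EPSCs lay below D-EPSCs (log2 fold change -0.99), a call lost without either D-EPSC library or replicate 2 of the L-EPSCs, at -1.05 to -0.84. Nanos3, between 22.5 and 62.1, was called lower in D-EPSCs against both other groups.

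Of the other testis genes, Slc25a31, the germ cell ADP/ATP carrier, had 1 read in each ESC library, 31.7 and 34.3 normalized counts in D-EPSCs and 32.9 and 14.9 in L-EPSCs. The ratio of normalized counts was 36.2 in D-EPSCs, with an exact 95% counting interval of 9.64 to 305, and 26.8 in L-EPSCs (7.01 to 228). Ctcfl (BORIS), the testis paralog of CTCF, had 2.696 and 0 in ESCs, 8.17 and 12.7 in D-EPSCs, and 11.3 and 9.19 in L-EPSCs, and its calls in both EPSC states were lost without either library of the EPSC group or replicate 2 of the ESCs, at 1.60 to 2.84 and 1.60 to 2.68. Ddx25, a testis RNA helicase, had 35.0 and 32.3 in ESCs, 116 and 118 in D-EPSCs, and 113 and 87.3 in L-EPSCs, and rose by 1.77 ± 0.19 and 1.54 ± 0.19 (limma adjusted p = 0.00022 and 0.00047). Tex14, a protein of the bridges between germ cells, had 358 and 330.2 in ESCs, 593 and 595 in D-EPSCs, and 939.7 and 879 in L-EPSCs, and the groups did not overlap. Its call between the EPSC states (0.61 ± 0.07) was lost without replicate 1 of the L-EPSCs, at 0.56. Tex19.1, which limits retrotransposons in germ cells, had 940.0 and 909 in ESCs, 303 and 281 in D-EPSCs, and 653 and 682 in L-EPSCs, and fell in D-EPSCs (log2 fold change -1.66, limma adjusted p = 7.8e-07). Reads of Tex19.1 could be shared with its close paralog Tex19.2. Brdt, a testis bromodomain protein, had 8.09 and 9.22 in ESCs, 17.4 and 27.4 in D-EPSCs, and 11.3 and 20.7 in L-EPSCs with no call, Dpep3 was between 12.3 and 16.6 with no call, and Tex101 was between 2.94 and 23.98 and called lower in D-EPSCs.

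**Figure D2:**
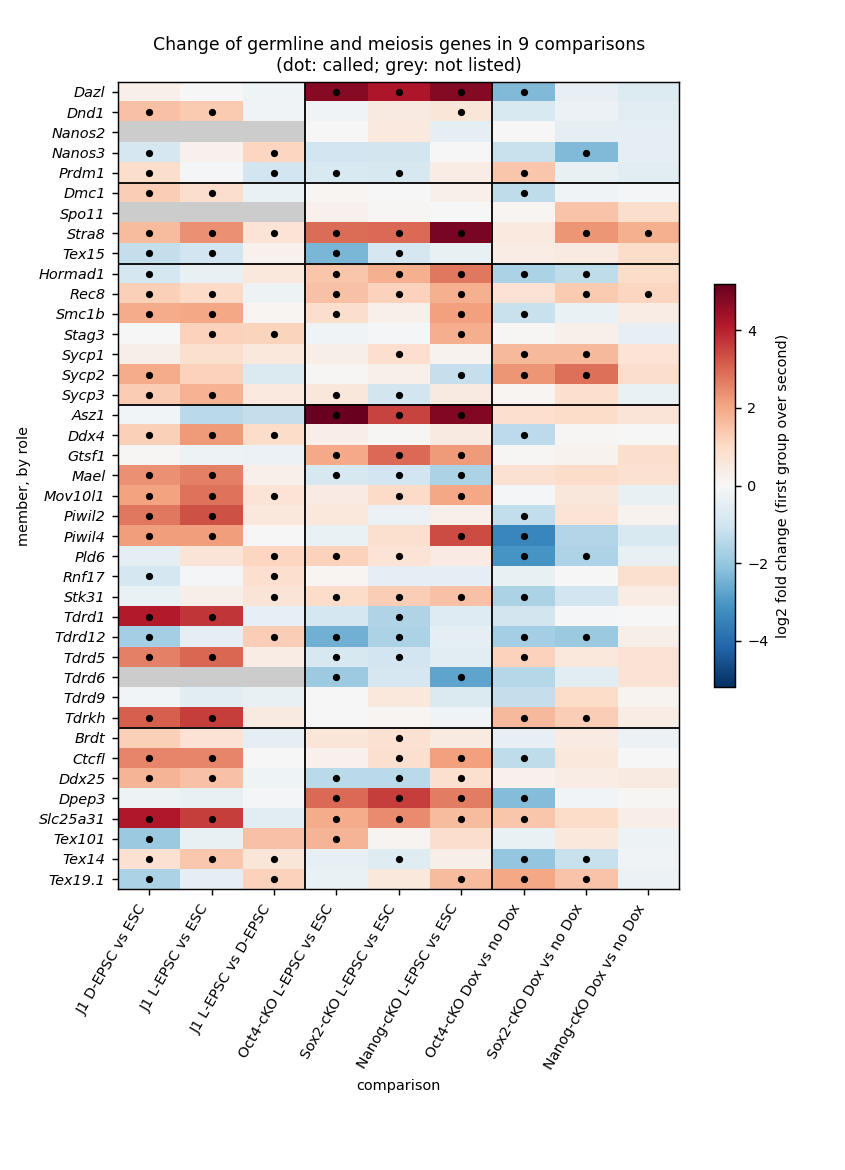
log2 fold change of each member (rows, by role) in 9 comparisons (columns), with a dot where the member was called and grey where it is not listed. Piwil2, Piwil4, Tdrd1, Tdrd5 and Tdrkh are red with dots in both J1 columns of EPSCs against ESCs, and Dazl, Stra8, Asz1 and Dpep3 in the 3 columns of tet-off L-EPSCs against ESCs.

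Conversion of the 3 tet-off lines from ESCs to untreated L-EPSCs changed members in both directions. In Oct4-cKO 13 of 40 rose and 7 fell, against 13% of all genes called higher and 15.4% called lower (28.4% in all). In Sox2-cKO 14 rose and 9 fell, against 7.99% and 11.6% (19.6% in all), and in Nanog-cKO 17 rose and 3 fell, against 12.2% and 14.7% (26.9% in all). Median log2 fold changes of the members were 0.17, 0.25 and 0.45, against 0 for all genes in each line. The 9 members that rose in all 3 lines were Asz1, Dazl, Dpep3, Gtsf1, Hormad1, Rec8, Slc25a31, Stk31 and Stra8, and Mael fell in all 3. The share of all genes called the same way in all 3 lines was not computed, so the 9 are a description only. Stra8, Rec8 and Slc25a31 also rose in J1 L-EPSCs, and so did Mael. The fibroblast and macrophage genes were low here (their sums are given above), and J1 and the tet-off lines were not tested against each other. Of 9 trophoblast genes, 6 rose in Oct4-cKO, 5 fell in Sox2-cKO, and 3 rose and 1 fell in Nanog-cKO on conversion. Of 8 primitive endoderm genes, 5 rose and 1 fell in Oct4-cKO, 2 rose and 5 fell in Sox2-cKO, and 3 rose and 2 fell in Nanog-cKO. Of the 12 genes of pluripotency and germ cell specification, 1 rose and 5 fell, 2 fell, and 2 rose and 5 fell in the 3 lines in this order. These lists moved with the conversions, and their part in the members' changes was not tested. Where values are set against each other here, those of ESCs come first and those of untreated L-EPSCs second.

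Dazl rose in all 3 lines. It had 129.7 and 113 normalized counts in Oct4-cKO ESCs and 3237 and 3331 in untreated L-EPSCs, 111 and 151 against 2367 and 2463 in Sox2-cKO, and 99.3 and 84.1 against 2601 and 2485 in Nanog-cKO. Every L-EPSC library was far above every ESC library, with log2 fold changes of 4.75 ± 0.11, 4.21 ± 0.11 and 4.78 ± 0.11 (limma adjusted p = 6e-15, 7.3e-14 and 5.3e-15). The Dazl gene lies at chr17:50418719-50432924 of NCBIM37, on the minus strand. Stra8 (chr6:34870163-34889342 of NCBIM37) had 210.2 and 171 in Oct4-cKO ESCs and 1400.3 and 1462 in L-EPSCs, 140.3 and 176 against 1185 and 1244 in Sox2-cKO, and 72.1 and 75.1 against 2305 and 2279.7 in Nanog-cKO. Its log2 fold changes were 2.91 ± 0.09, 2.94 ± 0.09 and 4.94 ± 0.09 (limma adjusted p = 2e-13, 5.3e-13 and 3.4e-16). The change in Nanog-cKO was larger than in the other two, with interaction terms of -2.03 for Oct4-cKO minus Nanog-cKO and -2.00 for Sox2-cKO minus Nanog-cKO (limma adjusted p = 7e-09 and 1.1e-08). Rec8 had 215 and 237 against 629 and 661 in Oct4-cKO, 360.4 and 417 against 902 and 884 in Sox2-cKO, and 206 and 201 against 745 and 724 in Nanog-cKO. It rose by 1.51 ± 0.06, 1.20 ± 0.06 and 1.85 ± 0.06 (limma adjusted p = 9.7e-12, 3.8e-10 and 1e-12).

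Asz1 was near 0 in the ESCs of Oct4-cKO and Nanog-cKO. Its libraries had 2.09 and 0.967 in Oct4-cKO ESCs and 89.6 and 81.7 in L-EPSCs, 7.07 and 10.4 against 119 and 102 in Sox2-cKO, and 0 in both ESC libraries and 24.5 and 29.6 in Nanog-cKO. The ratio was 56.9 in Oct4-cKO, with an exact 95% counting interval of 19.2 to 278 on 3 reads in ESCs, and in Nanog-cKO the level was at least 16.7-fold higher, taking 3 reads over both ESC libraries as the floor. In Sox2-cKO the log2 fold change was 3.53 ± 0.31 (limma adjusted p = 1.2e-07). Gtsf1 had 41.8 and 29.97 against 132 and 155 in Oct4-cKO, 17.2 and 19.9 against 157 and 142 in Sox2-cKO, and 9.41 and 16.8 against 66.0 and 58.1 in Nanog-cKO, without overlap in any line. It rose by 1.99 ± 0.23, 2.94 ± 0.23 and 2.21 ± 0.23 (limma adjusted p = 2.3e-06, 4.1e-08 and 7.4e-07). Stk31 had 226 and 181 against 382 and 399 in Oct4-cKO, 148 and 122 against 310.0 and 342 in Sox2-cKO, and 50.2 and 53.8 against 162 and 143 in Nanog-cKO, and rose by 0.95 ± 0.13, 1.27 ± 0.13 and 1.53 ± 0.13. The Slc25a31 libraries had 30.3 and 39.6 against 151 and 120.4 in Oct4-cKO, 17.2 and 19.07 against 95.1 and 114 in Sox2-cKO, and 25.1 and 30.3 against 93.7 and 82.6 in Nanog-cKO, with log2 fold changes of 1.93 ± 0.20, 2.46 ± 0.20 and 1.64 ± 0.20. Dpep3, a membrane dipeptidase of the testis, was between 5.23 and 111 over the 18 tet-off libraries, with log2 fold changes of 2.96, 3.60 and 2.67.

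The other piRNA genes were called lower, not called, or called in some lines. Mael fell in all 3 lines, from 331 and 378 to 182 and 217 in Oct4-cKO, from 268 and 269.6 to 125 and 144 in Sox2-cKO and from 344 and 322 to 103 and 107 in Nanog-cKO, with log2 fold changes of -0.83, -0.996 and -1.65 (limma adjusted p = 2.9e-05, 6.1e-06 and 9.3e-09). Piwil2 had 127 and 118 against 177 and 187 in Oct4-cKO, 175 and 200.3 against 156 and 149.6 in Sox2-cKO, and 170.4 and 149 against 179 and 205 in Nanog-cKO, with no call. Tdrkh had 82.6 and 75.4 against 77.2 and 79.0 in Oct4-cKO, 74.7 and 48.6 against 67.0 and 61.9 in Sox2-cKO, and 107 and 82.96 against 70.3 and 94.8 in Nanog-cKO, where ESCs and L-EPSCs overlapped in every line. Ddx4, with 207 and 197 against 243 and 268 in Oct4-cKO, 151 and 127 against 119 and 179 in Sox2-cKO, and 199.7 and 251 against 274 and 343 in Nanog-cKO, was not called either. Mov10l1 had 285 and 263 against 368 and 371 in Oct4-cKO with no call, 109 and 153 against 267 and 255 in Sox2-cKO, and 83.6 and 89.7 against 342 and 372 in Nanog-cKO. It rose in Sox2-cKO by 1.01 ± 0.12 and in Nanog-cKO by 2.03 ± 0.12 (limma adjusted p = 3.8e-06 and 4.9e-10). Tdrd12 fell from 240.5 and 248 to 47.0 and 38.6 in Oct4-cKO and from 657 and 638 to 199 and 214 in Sox2-cKO, and had 233 and 229.8 against 150.2 and 181 in Nanog-cKO. Pld6 had 47.1 and 64.8 against 114 and 146 in Oct4-cKO, 81.8 and 91.9 against 129 and 154 in Sox2-cKO, and 78.4 and 54.9 against 82.0 and 97.9 in Nanog-cKO, and rose in Oct4-cKO and Sox2-cKO. The Sox2-cKO call of Pld6 was lost without replicate 1 or 2 of the ESCs or replicate 2 of the L-EPSCs, at 0.56 to 0.77. Rnf17 had 979.8 and 1016 against 1108 and 1021 in Oct4-cKO, 1406 and 1359 against 988 and 987 in Sox2-cKO, and 777 and 800.4 against 525 and 575 in Nanog-cKO, and was not called. Of the piRNA genes not given by library, Piwil4 was between 0 and 106, Tdrd1 between 5.76 and 38.4, Tdrd5 between 30.9 and 100.2 and Tdrd9 between 6.06 and 62.9 over the 18 libraries. Piwil4, a nuclear PIWI protein, rose in Nanog-cKO (3.40 ± 0.62), and the interaction terms against Oct4-cKO and Sox2-cKO were -3.75 and -2.55 (limma adjusted p = 0.0043 and 0.044). Tdrd5 was called lower in Oct4-cKO and Sox2-cKO and Tdrd1 in Sox2-cKO. Tdrd6 reached at most 11.5, had 12 reads in Nanog-cKO ESCs and none in their L-EPSCs, at least 4.15-fold lower on the same floor, and was also called lower in Oct4-cKO.

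The meiotic axis and cohesin genes also divided by line. Hormad1 had 106 and 97.7 against 279.5 and 275 in Oct4-cKO, 112 and 77.2 against 335 and 333 in Sox2-cKO, and 21.96 and 21.3 against 143 and 161 in Nanog-cKO, and rose by 1.44 ± 0.16, 1.83 ± 0.16 and 2.75 ± 0.16 (limma adjusted p = 9.4e-07, 9.8e-08 and 3.6e-10). Smc1b had 143 and 114 against 239.6 and 242 in Oct4-cKO, 496 and 441 against 570.4 and 543 in Sox2-cKO, and 127 and 104 against 491 and 516 in Nanog-cKO, with calls in Oct4-cKO (0.91 ± 0.11) and Nanog-cKO (2.12 ± 0.11). Stag3 had 842 and 789 against 725 and 717 in Oct4-cKO, 967 and 1118 against 1039 and 978 in Sox2-cKO, and 341 and 359.9 against 1286 and 1318 in Nanog-cKO, so its Nanog-cKO ESCs lay below all other groups. Its rise in Nanog-cKO (1.89 ± 0.06) exceeded the changes in Oct4-cKO and Sox2-cKO, with interaction terms of -2.07 and -1.94 (limma adjusted p = 1.2e-10 and 2.9e-10). Sycp3, whose reads are uncertain, rose from 152 and 189.5 to 251 and 265 in Oct4-cKO, fell from 287 and 276 to 150.2 and 139 in Sox2-cKO, and had 96.2 and 76.2 against 114 and 120.3 in Nanog-cKO. The Oct4-cKO call was lost without replicate 1 of the ESCs, at 0.44, and without replicate 2 of the L-EPSCs, at 0.56. Sycp1 had 77.4 and 73.5 against 86.1 and 103 in Oct4-cKO, 28.3 and 28.6 against 62.7 and 43.9 in Sox2-cKO, and 70.1 and 51.6 against 70.3 and 67.3 in Nanog-cKO, and Sycp2 had 35.6 and 38.7 against 48.8 and 31.4 in Oct4-cKO, 21.2 and 28.6 against 33.5 and 25.9 in Sox2-cKO, and 43.9 and 57.2 against 20.2 and 22.4 in Nanog-cKO. Sycp1 was called higher in Sox2-cKO, a call lost without replicate 1 of the L-EPSCs (0.61), and Sycp2 was called lower in Nanog-cKO.

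No recombination gene was called higher on conversion. Tex15 fell from 376 and 383 to 63.9 and 79.9 in Oct4-cKO and from 418 and 432 to 230.1 and 227 in Sox2-cKO, with log2 fold changes of -2.39 and -0.89 (limma adjusted p = 4.9e-12 and 1.6e-06), and had 422 and 425 against 306 and 335 in Nanog-cKO. Dmc1 had 68.0 and 82.2 against 89.6 and 72.8 in Oct4-cKO, 130.2 and 158 against 137 and 145 in Sox2-cKO, and 309 and 345 against 418 and 369 in Nanog-cKO, with no call. Spo11, which makes the breaks that start recombination, was at 3 reads or fewer in 17 of 18 libraries, and Nanos2, a repressor of meiosis in male germ cells, in all 18. Of the other regulators, Prdm1 fell from 98.3 and 110.2 to 53.2 and 67.4 in Oct4-cKO and from 189.8 and 236 to 129 and 109.7 in Sox2-cKO, and had 52.3 and 25.8 against 52.2 and 44.9 in Nanog-cKO. These calls of Prdm1 were lost without either ESC library or replicate 1 of the L-EPSCs in Oct4-cKO, and without replicate 2 of either group in Sox2-cKO, at -0.87 to -0.62 and -0.71 to -0.67. Dnd1 had 147 and 134 against 129 and 118 in Oct4-cKO, 95.9 and 88.4 against 129 and 126 in Sox2-cKO, and 158 and 147 against 212 and 267 in Nanog-cKO, and was called higher in Nanog-cKO, a call lost without replicate 2 of the ESCs or of the L-EPSCs (0.59 and 0.47). Nanos3 was between 0 and 27.7 and was not called on conversion.

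Among the remaining testis genes, Tex19.1 had 702 and 703 against 572 and 525 in Oct4-cKO, 436 and 375 against 586 and 605 in Sox2-cKO, and 308 and 302 against 987 and 919 in Nanog-cKO, and rose in Nanog-cKO by 1.64 ± 0.07 (limma adjusted p = 6.8e-12). Ddx25 fell from 95.2 and 102 to 34.6 and 39.5 in Oct4-cKO and from 86.8 and 91.9 to 35.6 and 30.9 in Sox2-cKO but was called higher in Nanog-cKO, with 32.4 and 32.5 against 53.3 and 65.3, a call lost without replicate 2 of those L-EPSCs (0.70). The interaction terms of Ddx25 against Nanog-cKO were -2.23 and -2.24 (limma adjusted p = 7.1e-05 and 6.8e-05). Ctcfl had 118 and 92.8 against 119.8 and 127 in Oct4-cKO, 60.6 and 36.4 against 89.7 and 78.8 in Sox2-cKO, and 21.96 and 11.2 against 72.4 and 73.4 in Nanog-cKO, and was called higher in Sox2-cKO and Nanog-cKO, the Sox2-cKO call being lost without replicate 2 of the ESCs (0.47) or either L-EPSC library (0.73 and 0.92). Tex14 had 238 and 189 against 152 and 168 in Oct4-cKO, 530.0 and 500.3 against 334 and 340.2 in Sox2-cKO, and 589 and 537 against 727 and 669 in Nanog-cKO, and Brdt had 72.1 and 77.4 against 106 and 131 in Oct4-cKO, 43.4 and 25.1 against 54.0 and 63.8 in Sox2-cKO, and 29.3 and 47.1 against 52.2 and 50.0 in Nanog-cKO. In Sox2-cKO, Tex14 was called lower and Brdt higher, and leaving out 1 library ended both calls, at -0.60 to -0.57 for Tex14 (replicate 1 of either group) and 0.43 to 0.93 for Brdt (replicate 2 of the ESCs or either L-EPSC library). Tex101 was between 1.12 and 38.6 and was called higher in Oct4-cKO.

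**Figure D3:**
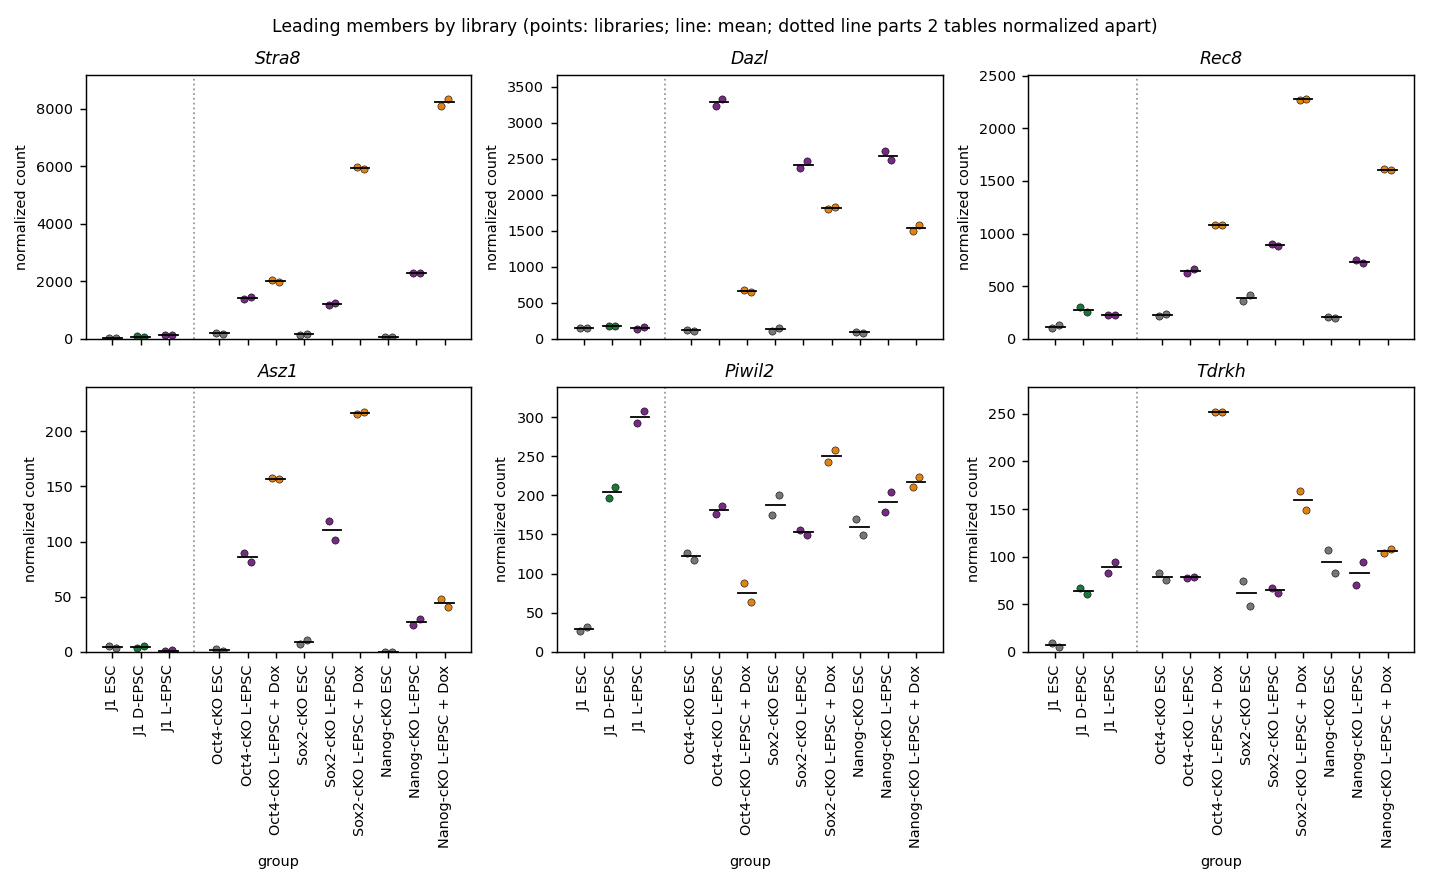
Normalized count of 6 members in each library, by group, on linear axes from 0, with points for libraries and a line for the mean of 2. Stra8 rises with conversion in each tet-off line and is at 5894 to 8341 in the Dox-treated Sox2-cKO and Nanog-cKO libraries, while Piwil2 and Tdrkh are higher in EPSCs than in ESCs of J1.

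Dox treatment of L-EPSCs was compared with no Dox in each tet-off line, with a log2 fold change beyond 1 needed for a call. These comparisons share the untreated L-EPSCs with those of conversion. In Oct4-cKO 7 members rose and 13 fell, against 8.53% of all genes called higher and 10.8% called lower (19.3% in all). In Sox2-cKO 6 rose and 5 fell, against 7.79% and 7.32% (15.1% in all), and in Nanog-cKO 2 rose and 0 fell, against 2.8% and 2.59% (5.39% in all). Members' medians were -0.37, 0.34 and 0.16, against 0 for all genes. At a threshold of 0.6, 18 were called in Sox2-cKO (12 higher and 6 lower), against 23.2% of all genes, and 11 in Nanog-cKO (10 higher and 1 lower), against 9.94%. Without replicate 2 of the untreated Nanog-cKO L-EPSCs, 4 members passed the threshold of 1 in that line. The summed level of 9 trophoblast genes moved with Dox, from a range of 4456 to 4578 without Dox to one of 31223 to 31843 normalized counts with it in Oct4-cKO, from a range of 1924 to 1976 without Dox to one of 13171 to 13206 with it in Sox2-cKO and from a range of 486 to 591 without Dox to one of 933 to 981 with it in Nanog-cKO, and its part in the members' changes was not tested. Of the 9 trophoblast genes 7 rose in Oct4-cKO, 8 in Sox2-cKO and 2 in Nanog-cKO. Of 12 genes of pluripotency and germ cell specification, 11 fell in Oct4-cKO, 10 in Sox2-cKO and 1 in Nanog-cKO, and 1 rose in each line. The 12 include Pou5f1, Sox2 and Nanog, so the list of each line holds the factor that Dox itself shuts off. Of 8 primitive endoderm genes, 1 rose and 3 fell in Oct4-cKO, 2 rose and 3 fell in Sox2-cKO, and 1 fell in Nanog-cKO.

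Stra8 and Rec8 were the 2 members that rose in Nanog-cKO and rose in Sox2-cKO as well. Stra8 had 2036 and 1985 normalized counts with Dox in Oct4-cKO, 5976 and 5894 in Sox2-cKO and 8107 and 8341 in Nanog-cKO, against the untreated values above. Its log2 fold changes were 0.49 ± 0.09, 2.29 ± 0.09 and 1.84 ± 0.09 (limma adjusted p = 0.00025, 4.9e-12 and 3.7e-10), and the Oct4-cKO effect was smaller than those in Sox2-cKO and Nanog-cKO, with interaction terms of -1.80 and -1.35 (limma adjusted p = 2.3e-08 and 3e-07). Rec8 had 1079 and 1078 in Oct4-cKO, 2269 and 2281 in Sox2-cKO and 1611 and 1601 in Nanog-cKO, with log2 fold changes of 0.74 ± 0.06, 1.35 ± 0.06 and 1.13 ± 0.06 (limma adjusted p = 6.7e-08, 5.8e-11 and 2.3e-09). The first of these lies under the threshold of 1. Dazl had 681 and 646 with Dox in Oct4-cKO, 1806 and 1827 in Sox2-cKO and 1493 and 1578 in Nanog-cKO. It fell in Oct4-cKO, with a log2 fold change of -2.31 (limma adjusted p = 2.6e-11), and the other 2 values were -0.41 and -0.73, not called. The interaction terms of Oct4-cKO against Sox2-cKO and Nanog-cKO were -1.90 and -1.58 (limma adjusted p = 1.1e-07 and 4.4e-07). In Oct4-cKO the Dox-treated Dazl libraries remained above those of the ESCs.

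Sycp1, Sycp2, Tdrkh and Tex19.1 rose in both Oct4-cKO and Sox2-cKO. Sycp1 had 286 and 329 with Dox in Oct4-cKO, 179.8 and 160.3 in Sox2-cKO and 95.7 and 134 in Nanog-cKO. Sycp2 had 181 and 219 in Oct4-cKO, 256 and 195 in Sox2-cKO, and 43.0 and 38.2 in Nanog-cKO, with log2 fold changes of 2.31 ± 0.26, 2.88 ± 0.26 and 0.90 ± 0.26. Tdrkh had 252 and 252 in Oct4-cKO, 169 and 149 in Sox2-cKO, and 104 and 108 in Nanog-cKO, and Tex19.1 had 2211 and 2262 in Oct4-cKO, 1703 and 1635 in Sox2-cKO, and 805 and 758 in Nanog-cKO. For Tex19.1 the log2 fold changes were 2.03 ± 0.07, 1.49 ± 0.07 and -0.29 ± 0.07, and the Nanog-cKO value differed from both others (interaction terms 2.31 and 1.77, limma adjusted p = 1.4e-11 and 5.9e-10). Hormad1, Pld6, Tdrd12 and Tex14 fell in both. Hormad1 had 97.9 and 78.8 in Oct4-cKO, 136 and 128 in Sox2-cKO, and 299 and 289 in Nanog-cKO with Dox, and its Nanog-cKO value of 0.95 differed from the other 2 by interaction terms of -2.60 and -2.28 (limma adjusted p = 1e-07 and 6.4e-07). Pld6 had 12.7 and 16.7 in Oct4-cKO, 43.7 and 47.4 in Sox2-cKO, and 65.9 and 69.7 in Nanog-cKO, Tdrd12 had 8.06 and 16.7 in Oct4-cKO, 51.1 and 54.8 in Sox2-cKO, and 207 and 196 in Nanog-cKO, and Tex14 had 43.8 and 34.4 in Oct4-cKO, 157 and 141 in Sox2-cKO, and 619 and 622 in Nanog-cKO. The log2 fold changes of Pld6 were -3.07 ± 0.23 and -1.60 ± 0.23, those of Tdrd12 -1.79 ± 0.22 and -1.94 ± 0.22, and those of Tex14 -2.01 ± 0.12 and -1.17 ± 0.12 in Oct4-cKO and Sox2-cKO.

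Other members were called with Dox in 1 line. Ddx4 had 101 and 94.4 in Oct4-cKO, 158 and 143 in Sox2-cKO and 316 and 313 in Nanog-cKO, and Piwil2 had 87.5 and 63.3 in Oct4-cKO, 243 and 258 in Sox2-cKO, and 211 and 224 in Nanog-cKO. For Ddx4 the Oct4-cKO effect (-1.37 ± 0.17) was below those of Sox2-cKO and Nanog-cKO, with interaction terms of -1.42 and -1.41, and for Piwil2 (-1.28 ± 0.14) they were -1.98 and -1.46 (limma adjusted p = 0.00026, 0.00018, 1.2e-06 and 2e-05). Dmc1 had 35.7 and 28.9 in Oct4-cKO, 130.3 and 121 in Sox2-cKO, and 378 and 378 in Nanog-cKO, and Ctcfl had 55.3 and 43.3 in Oct4-cKO, 140.2 and 109.6 in Sox2-cKO, and 72.0 and 77.6 in Nanog-cKO. Smc1b had 101 and 112 in Oct4-cKO, 441 and 429 in Sox2-cKO, and 631 and 698 in Nanog-cKO, and Stk31 had 121 and 125 in Oct4-cKO, 163 and 164 in Sox2-cKO, and 207 and 192 in Nanog-cKO. These 4 fell in Oct4-cKO, with log2 fold changes of -1.30, -1.31, -1.17 and -1.66. Piwil4 and Dpep3 fell there too, and Tdrd5 rose. Prdm1 and Slc25a31 rose in Oct4-cKO, Prdm1 with 154 and 171 in Oct4-cKO, 98.2 and 85.0 in Sox2-cKO, and 29.9 and 33.7 in Nanog-cKO and Slc25a31 with 352 and 374 in Oct4-cKO, 226 and 177 in Sox2-cKO, and 98.4 and 128 in Nanog-cKO. Nanos3 fell in Sox2-cKO.

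Interaction terms compared the size of these effects between lines for all 40 members. Terms that share a line also share its libraries, so they are not independent of each other. For conversion, 6 members differed between Oct4-cKO and Sox2-cKO, with 4 higher and 2 lower in Oct4-cKO, against 5.91% of all genes called higher and 4.09% called lower (10% in all). After centring of each library on its median these counts were 4 and 6. Between Oct4-cKO and Nanog-cKO 17 differed, with 3 higher and 14 lower in Oct4-cKO, against 7.55% and 7.18% (14.7% in all), and between Sox2-cKO and Nanog-cKO 18 differed, with 3 higher and 15 lower in Sox2-cKO, against 6.7% and 8.09% (14.8% in all). For Dox, 10 differed between Oct4-cKO and Sox2-cKO, with 1 higher and 9 lower in Oct4-cKO, against 2.12% and 4.69% (6.81% in all). Between Oct4-cKO and Nanog-cKO 20 differed, with 5 higher and 15 lower in Oct4-cKO, against 6.17% and 8.59% (14.8% in all). Between Sox2-cKO and Nanog-cKO 8 differed, with 3 higher and 5 lower in Sox2-cKO, against 5.57% and 5.74% (11.3% in all).

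The other named members were not called with Dox in any line. Asz1 had 158 and 157 in Oct4-cKO, 215 and 217 in Sox2-cKO and 47.4 and 40.5 in Nanog-cKO, above the untreated libraries in each line, with log2 fold changes of 0.87, 0.97 and 0.68. Gtsf1 had 146 and 151 in Oct4-cKO, 174 and 167 in Sox2-cKO, and 113 and 120.3 in Nanog-cKO, and Mael had 307 and 377 in Oct4-cKO, 279 and 243 in Sox2-cKO, and 189.7 and 175 in Nanog-cKO. Mov10l1 had 354 and 362 in Oct4-cKO, 396 and 398 in Sox2-cKO, and 278 and 274 in Nanog-cKO, Rnf17 had 802 and 811 in Oct4-cKO, 956 and 1032 in Sox2-cKO, and 985 and 989 in Nanog-cKO, and Stag3 had 734 and 764 in Oct4-cKO, 1249.8 and 1202 in Sox2-cKO, and 958 and 965 in Nanog-cKO. Sycp3 stood at 283 and 273 in Oct4-cKO, 282 and 253 in Sox2-cKO, and 76.4 and 112 in Nanog-cKO, and Tex15 at 95.6 and 89.9 in Oct4-cKO, 310.2 and 324 in Sox2-cKO, and 596 and 648 in Nanog-cKO. Ddx25 stood at 34.5 and 55.5 in Oct4-cKO, 42.9 and 45.0 in Sox2-cKO, and 87.8 and 77.6 in Nanog-cKO, Brdt at 91.0 and 82.1 in Oct4-cKO, 73.4 and 87.5 in Sox2-cKO, and 32.5 and 51.7 in Nanog-cKO, and Dnd1 at 82.9 and 58.8 in Oct4-cKO, 115 and 89.9 in Sox2-cKO, and 168 and 156 in Nanog-cKO.

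The members were set beside the genes that write and erase DNA methylation, since promoter methylation is the known means by which many of them are kept silent. In J1, Dnmt3a and Dnmt3l were higher in both EPSC states. Dnmt3a had 888 and 857 normalized counts in ESCs, 3730.2 and 3689 in D-EPSCs and 3253 and 3351 in L-EPSCs, and rose by 2.09 ± 0.04 and 1.92 ± 0.04 (limma adjusted p = 1.9e-08 and 2.8e-08). Dnmt3l had 397 and 412 in ESCs, 1797 and 1789 in D-EPSCs, and 2606 and 2572 in L-EPSCs, and rose by 2.14 ± 0.04 and 2.67 ± 0.04 (limma adjusted p = 3.4e-08 and 1.2e-08). Dnmt3b had 1659.8 and 1547 in ESCs, 2682 and 2709 in D-EPSCs, and 1859.8 and 1993 in L-EPSCs, and rose in D-EPSCs by 0.75 ± 0.05 (limma adjusted p = 1.2e-05). Uhrf1 fell from 11249.9 and 10948 to 5298 and 5499.9 in D-EPSCs and 6596 and 6515 in L-EPSCs, and Dnmt1 had 6283 and 6302 in ESCs, 6132 and 6174 in D-EPSCs, and 5588 and 5745 in L-EPSCs with no call. Tet2 fell from 4357 and 4341 to 1911 and 1917 in D-EPSCs and 2455 and 2615 in L-EPSCs, and Tet1 had 6495 and 6467 in ESCs, 8081 and 8190.2 in D-EPSCs, and 9286 and 9019 in L-EPSCs with no call.

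On conversion of the tet-off lines, each call of a Dnmt3 gene was lower. Dnmt3b fell from 3237 and 3307 to 918 and 879 in Oct4-cKO, from 2146 and 2281 to 1103 and 1148 in Sox2-cKO and from 3544 and 3613 to 897 and 901 in Nanog-cKO, with log2 fold changes of -1.86, -0.97 and -1.99 (limma adjusted p = 2.3e-14, 1.1e-10 and 9.7e-15). Dnmt3l had 2559 and 2564 against 1721 and 1800.2 in Oct4-cKO with no call, and fell from 3735 and 3733 to 1504 and 1469 in Sox2-cKO and from 3649 and 3593 to 615 and 587 in Nanog-cKO. Dnmt3a fell from 2039 and 2045 to 1246 and 1299 in Oct4-cKO and from 2279 and 2244 to 1235 and 1175 in Sox2-cKO, and had 2851 and 2786 against 2468 and 2332 in Nanog-cKO with no call. Tet1 fell in each line, from 11347 and 11300.1 to 3579 and 3563 in Oct4-cKO, from 11349.5 and 11303 to 4035 and 4081 in Sox2-cKO and from 12137 and 12104 to 3614 and 3754 in Nanog-cKO, and so did Tet2, with log2 fold changes of -1.26, -1.75 and -2.41. Dnmt1 and Uhrf1 were not called on conversion, with log2 fold changes between -0.37 and 0.30.

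With Dox, Dnmt3a rose in Sox2-cKO, to 2493 and 2553, and had 742 and 796 in Oct4-cKO and 2367 and 2475 in Nanog-cKO. Dnmt3l fell in Sox2-cKO to 575 and 582, and had 954 and 991 in Oct4-cKO and 358 and 319 in Nanog-cKO. Dnmt3b had 1501 and 1496 in Oct4-cKO, 1231 and 1152 in Sox2-cKO, and 1603 and 1475 in Nanog-cKO with no call. A call with Dox needed a log2 fold change beyond 1, against 0.6 for conversion. The Dox-treated libraries of Dnmt3b lay above the untreated ones in each line. Those of Dnmt3l lay below them in Oct4-cKO and Nanog-cKO, and those of Dnmt3a in Oct4-cKO, without a call. Tet1 fell to 432 and 506 in Oct4-cKO and 1969 and 1926 in Sox2-cKO. Across the 9 group means of the tet-off table, the median Spearman's rho of the 40 members was -0.08 with Dnmt3a, -0.19 with Dnmt3b and -0.28 with Dnmt3l, against 0, 0.03 and 0.05 for all genes tested. Of the 40 members, 23, 24 and 28 had a negative rho with the 3 genes, and 17, 15 and 12 a positive one. The share of all genes with a negative rho was not computed. With replicate 1 alone the medians were 0.0083 with Dnmt3a (20 members negative and 20 positive), -0.18 with Dnmt3b and -0.23 with Dnmt3l, and with replicate 2 alone they were -0.075, -0.28 and -0.27. Over the 6 untreated groups alone the medians were -0.34, -0.37 and -0.32, against 0.03, 0.06 and 0.09. These groups share lines, culture states and normalization, so the values are a description and no p is given. They cover the tet-off lines only. In J1, Dnmt3a and Dnmt3l rose in both EPSC states, where more members rose than fell (20 rose and 7 fell in D-EPSCs, 19 rose and 1 fell in L-EPSCs). These counts include the 9 members of the DNA methylation list that the study drew from these same J1 libraries. Of the 28 others, 11 rose and 7 fell in D-EPSCs, with a median log2 fold change of 0.16. In L-EPSCs 10 of them rose and 1 fell, with a median of 0.49. On conversion of the tet-off lines the called Dnmt3 genes fell, while more members rose than fell. The direction thus differed between J1 and the tet-off lines. The medium of the tet-off ESCs is not stated separately in the study's methods, and the cause of the difference was not tested. DNA methylation itself was not measured in these libraries.

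**Figure D4:**
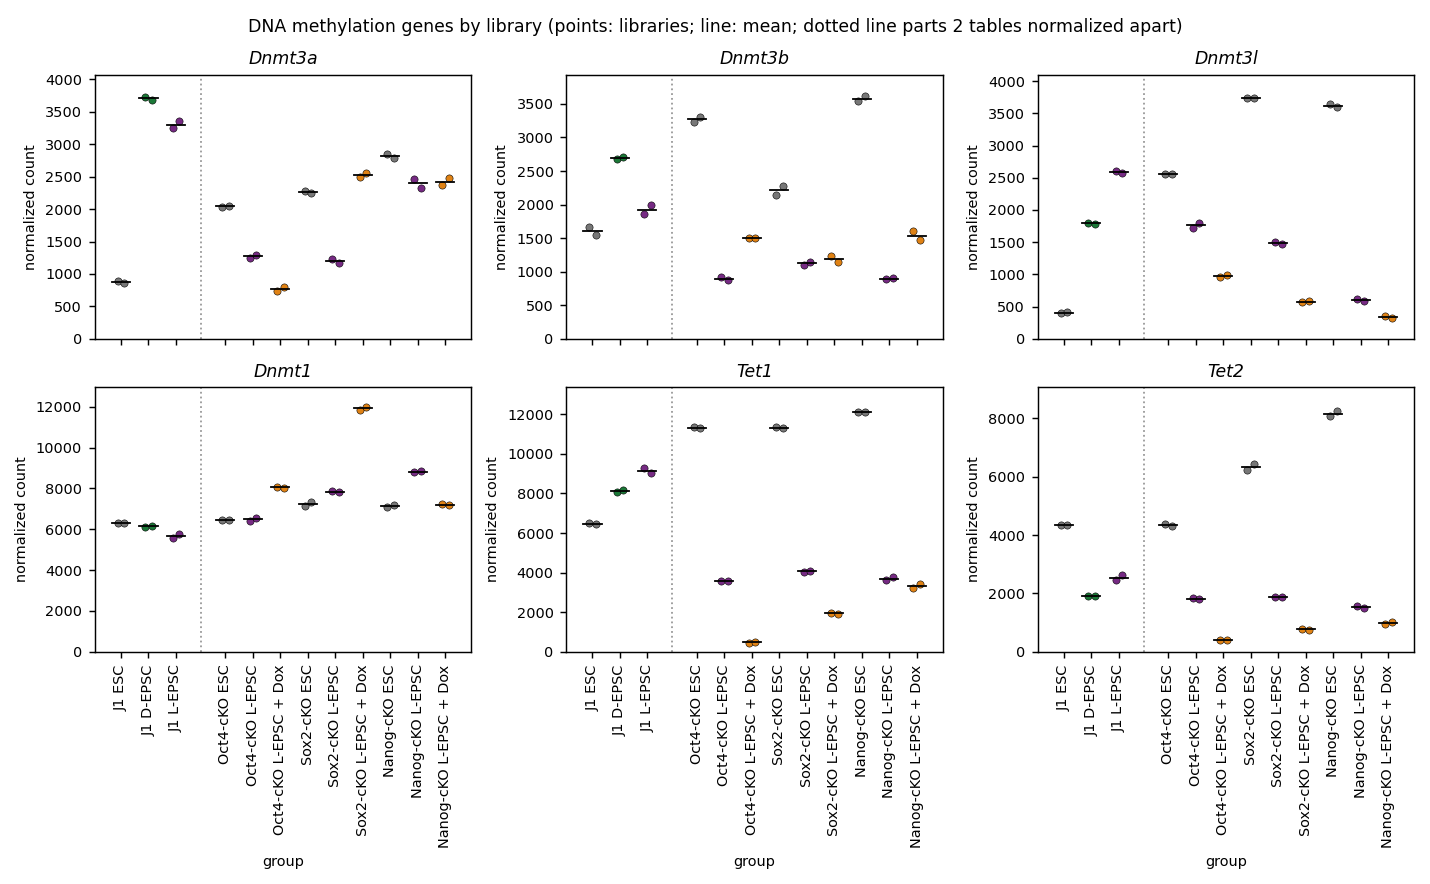
Normalized count of 6 genes that write or erase DNA methylation in each library, by group, on linear axes from 0, with points for libraries and a line for the mean of 2. Dnmt3a and Dnmt3l are higher in EPSCs than in ESCs of J1, and Dnmt3b, Tet1 and Tet2 are lower in L-EPSCs than in ESCs of each tet-off line.

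Other genes of the germline that are no members were read for comparison. Of 31 further meiosis and germ cell genes, 28 were tested in J1, where 8 rose and 1 fell in D-EPSCs and 8 rose and 1 fell in L-EPSCs, with medians of 0.57 and 0.82. In the tet-off lines 30 of them were tested, of which 5 rose and 7 fell on conversion of Oct4-cKO, 3 rose and 2 fell in Sox2-cKO, and 9 rose and 2 fell in Nanog-cKO. In J1 these are 32.1% in each EPSC state, against 20.7% and 20.3% of all genes, and in the tet-off lines 40%, 16.7% and 36.7%, against 28.4%, 19.6% and 26.9%, so the Sox2-cKO share lay below that of all genes. Sohlh2, a transcription factor of early germ cells, had 17.1 and 15.7 normalized counts in J1 ESCs, 609.6 and 676 in D-EPSCs and 316 and 371 in L-EPSCs. It rose in all 5 comparisons of EPSCs with ESCs, with log2 fold changes of 5.21 and 4.31 in J1 and 1.71, 1.89 and 3.30 in the tet-off lines. Fkbp6, a cochaperone of the piRNA pathway, fell in J1 (-1.21 and -0.73) and rose in the tet-off lines (2.52, 2.07 and 3.32). Of 16 genes of complexes that repress germline genes, 1 rose and 1 fell in D-EPSCs and in L-EPSCs of J1, 12.5% against 20.7% and 20.3% of all genes. On conversion 4, 2 and 6 of the 16 were called in Oct4-cKO, Sox2-cKO and Nanog-cKO (25%, 12.5% and 37.5%, against 28.4%, 19.6% and 26.9% of all genes). Of these, 2 rose and 2 fell in Oct4-cKO, 1 rose and 1 fell in Sox2-cKO, and 4 rose and 2 fell in Nanog-cKO. The median log2 fold changes of the 16 were -0.14, -0.06 and -0.09. L3mbtl2, a polycomb-related member of the MGA complex, fell in all 3 lines, with log2 fold changes of -1.40, -0.61 and -0.91 (limma adjusted p = 1.1e-11, 5.9e-07 and 2.6e-09).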

How the data were processed

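Poly(A) RNA was sequenced in 24 libraries, and 2 tables were used, 1 for the J1 line (6 libraries) and 1 for the tet-off lines (18 libraries). Reads were trimmed with Trim Galore 0.6.4, aligned with STAR 2.7.9a to mm9, and counted per gene of NCBIM37 with HTSeq 0.11.2, as the study's methods and the submitters' processing notes state. The authors deposited a signal per gene, the read count divided by a DESeq2 size factor of the library, set separately in each table. The strand setting is not given in the sources used here. The values are whole multiples of the value of 1 read (tolerance 0.05 reads), so reads were recovered for the floors and the count tests.

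limma 3.58.1 (R 4.3.3) was fitted to log2(normalized count + 1), a pseudocount that understates the change of genes with few reads, over all groups of a table and genes with at least 2 reads in total (21533 in J1, 24007 in tet-off). P-values were adjusted by Benjamini-Hochberg in each comparison. A gene was called at an adjusted p under 0.05 with a log2 fold change beyond 0.6, or beyond 1 for Dox. Groups came from the sample labels, 2 libraries each. A 2 against 2 exact permutation test cannot go below p = 0.333. The fits were tested on simulated counts. Alternatives were edgeR 4.0.16, DESeq2 1.42.0, scaling by TMM or by the median of each library, no filter or a mean normalized count of at least 10, a replicate block, a pseudocount of 0.1, groups compared alone, the other fold change threshold, and leaving out each library. The members and lists were chosen with earlier results of these data known. Values by library are given for the 30 members called in at least 1 comparison with a group mean of at least 30 and the highest group means, and the rest by range or count. Promoter windows came from RefSeq on GRCm38.p6, and 7 members (Rnf17, Spo11, Dnd1, Tdrd6, Piwil2, Ctcfl and Tex15) had no entry.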

Additional observations from a re-analysis of the deposited data

Results flagged for a closer look

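Effects of the same contrast differed between the tet-off lines by interaction terms (limma, adjusted p under 0.05 and the fold change threshold of the contrast). For conversion from ESCs to L-EPSCs, 6 members differed between Oct4-cKO and Sox2-cKO, 17 between Oct4-cKO and Nanog-cKO, and 18 between Sox2-cKO and Nanog-cKO, against 10%, 14.7% and 14.8% of all genes. The last 2 of these terms share the Nanog-cKO libraries and are not independent. The 6 were Asz1, Piwil2, Smc1b, Sycp3, Tex15 and Tex19.1. For Dox against no Dox, 10 members differed between Oct4-cKO and Sox2-cKO, 20 between Oct4-cKO and Nanog-cKO, and 8 between Sox2-cKO and Nanog-cKO, against 6.81%, 14.8% and 11.3% of all genes. The 8 were Hormad1, Tdrd12, Sycp2, Tex19.1, Stk31, Sycp3, Pld6 and Tex14.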

How the results depend on the processing

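The 132 calls of the 30 members given by library were recomputed under each alternative. Of 1845 recomputed values, 1711 kept their direction and their side of the threshold, 134 were no longer past it, and none reversed. Leaving out 1 library accounted for 76 of the 134, the other fold change threshold for 29 and comparing groups alone for 20. With that other threshold the members called were 5 between L-EPSCs and D-EPSCs of J1 (8.53% of all genes), 14 on Sox2-cKO conversion (12.5%), 18 with Dox in Sox2-cKO (23.2%) and 11 in Nanog-cKO (9.94%). In the interaction terms of Oct4-cKO against Sox2-cKO it gave 3 for conversion (5.36%) and 16 for Dox (12.9%), and 14 for Dox in Sox2-cKO against Nanog-cKO (18.3%). Median centring gave 10 members (4 higher and 6 lower) in place of 6 for conversion of Oct4-cKO against Sox2-cKO. Over the 6 untreated groups the median rho was -0.34 with Dnmt3a, -0.37 with Dnmt3b and -0.32 with Dnmt3l, and with a mean of at least 10 it was -0.30 with Dnmt3l. With replicate 1 alone it was 0.0083 with Dnmt3a and with replicate 2 alone -0.075, so its sign depended on the replicate used. The cause of these shifts was not tested beyond the changed threshold or set of groups.

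Without 1 library each, the members called ranged from 16 to 22 in D-EPSCs and 15 to 19 in L-EPSCs against J1 ESCs, and from 5 to 6 between them. They ranged from 16 to 18, 18 to 21 and 18 to 23 on conversion of Oct4-cKO, Sox2-cKO and Nanog-cKO, and from 19 to 22, 10 to 13 and 2 to 4 with Dox. In the interaction terms they ranged from 6 to 8, 12 to 17 and 13 to 19 for conversion, and from 9 to 11, 17 to 21 and 7 to 10 for Dox. A group left with 1 library was assumed to vary like the others. In J1, on conversion and with Dox, fewer of all genes were called under each of these removals. The member counts fell under each removal in J1. Under some removals they rose on conversion of Nanog-cKO and with Dox in each line. With the replicate number as a block, 131 of the 132 calls held and Stra8 between L-EPSCs and D-EPSCs was lost, at 0.72 on the log2 scale, and the counts were 27, 20 and 11 in J1. Deviations of libraries that share a replicate number correlated by -0.0093 to -0.0013 in J1 and -0.028 to 0.040 in the tet-off table, so no shared deviation was seen. Whether libraries of the same number were prepared together is not given by the labels and cannot be read from these values. Members at 3 reads or fewer, such as Nanos2, were below what this depth can compare.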
